A study of Arabidopsis thaliana with 6 samples.

Results

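The miR169 family comprised 8 of the 294 mature miRNA sequences counted in the study, namely every row listed for a locus from MIR169a to MIR169n, whichever arm of the precursor it came from. The rule itself uses no measured value. The plants were Arabidopsis thaliana seedlings of the bri1-5 mutant, which has a defective brassinosteroid receptor, carrying a Flag-tagged wild-type BRI1 receptor driven by its native promoter. Control seedlings in shaking liquid culture received solvent for 90 min, and treated seedlings received 1 µM epibrassinolide (epiBL, an active brassinosteroid) for 90 min. Each group had 3 biological replicates, so 6 small RNA libraries were compared, all of the same transgenic genotype and at a single dose and time. Whole seedlings were extracted, seedling age is not given in the labels, and a table of miRNAs holds no mRNA markers against which the tissue could be checked.

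A miR169 guide directs cleavage or repression of mRNAs for NF-YA proteins, the subunits that give the heterotrimeric NF-Y transcription factor its affinity for CCAAT boxes in promoters. In Arabidopsis, nitrogen starvation lowers miR169 and raises NF-YA mRNAs, and the pair is also known from drought responses and from the timing of flowering. The 5p arm of the precursor carries the guide, and the 3p arm is the strand that is usually discarded.

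The 8 sequences are shown because the family is divided by small differences at the ends of the guide. Capitals mark the seed, bases 2 to 8 counted from the 5′ end, and the letters are those of the deposited table.
miR169h-n-5p: tAGCCAAGgatgacttgcctg
miR169a-5p: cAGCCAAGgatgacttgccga
miR169b/c-5p: cAGCCAAGgatgacttgccgg
miR169d-g-5p: tGAGCCAAggatgacttgccg
miR169f-3p: gCAAGTTGaccttggctctgc
miR169a-3p: gGCAAGTTgtccttggctac
miR169b-3p: gGCAAGTTgtccttcggctaca
miR169g-3p: tCCGGCAAgttgaccttggct

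Of the 4 guide sequences, miR169h-n-5p, miR169a-5p and miR169b/c-5p share the seed AGCCAAG. miR169a-5p differs from miR169h-n-5p by C1T, G20T and A21G, and miR169b/c-5p differs from it by C1T and G20T, with positions counted from the 5′ end and the base of miR169h-n-5p given last. miR169a-5p and miR169b/c-5p are 1 base apart (A21G, miR169a-5p first), so a single error at the last base moves a read between them. In miR169d-g-5p the shared stretch sits 1 base further along: bases 3 to 21 of miR169d-g-5p equal bases 2 to 20 of miR169a-5p. The seed of miR169d-g-5p therefore reads GAGCCAA.

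The guide sequences came from 14 precursors in the TAIR10.1 assembly, and each match lay in an annotated MIR169 precursor outside any protein-coding gene. miR169h-n-5p matched 7 of them. These are MIR169h on chromosome 1, where the mature sequence lies at chr1:6695544-6695564 on the minus strand, and MIR169i to MIR169n on the minus strand of chromosome 3. The latter 6 precursors lie within 6795 bases, at chr3:9871960-9878754. The nearest protein-coding gene, 1177 bases from the cluster, is AFB2, which encodes an auxin receptor F-box protein, and no protein-coding gene lies inside the cluster, although 2 annotated long non-coding RNAs do, on the plus strand. miR169a-5p matched MIR169a alone (chr3:4359182-4359202, minus strand). miR169b/c-5p matched MIR169b and MIR169c on chromosome 5, and miR169d-g-5p matched MIR169d and MIR169e on chromosome 1, MIR169f on chromosome 3 and MIR169g on chromosome 4. The sequence counted as miR169g-3p also occurs in MIR169d. A read of a sequence encoded at several loci could have come from any of them.

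The cluster was arranged in 3 pairs with short gaps of 167, 155 and 160 bases inside pairs and gaps of 2971 and 2064 bases between them. In global alignments, the first precursors of the pairs (MIR169i, MIR169k and MIR169m) were 83.6% to 89.2% identical to each other. The second precursors (MIR169j, MIR169l and MIR169n) were 87.4% to 88.8% identical to each other. Between these kinds identity was 57.7% to 61.0%, a range that overlapped the 52.8% to 60.4% between MIR169h and the cluster precursors, although all 7 give the same mature guide.

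**Figure D1:**
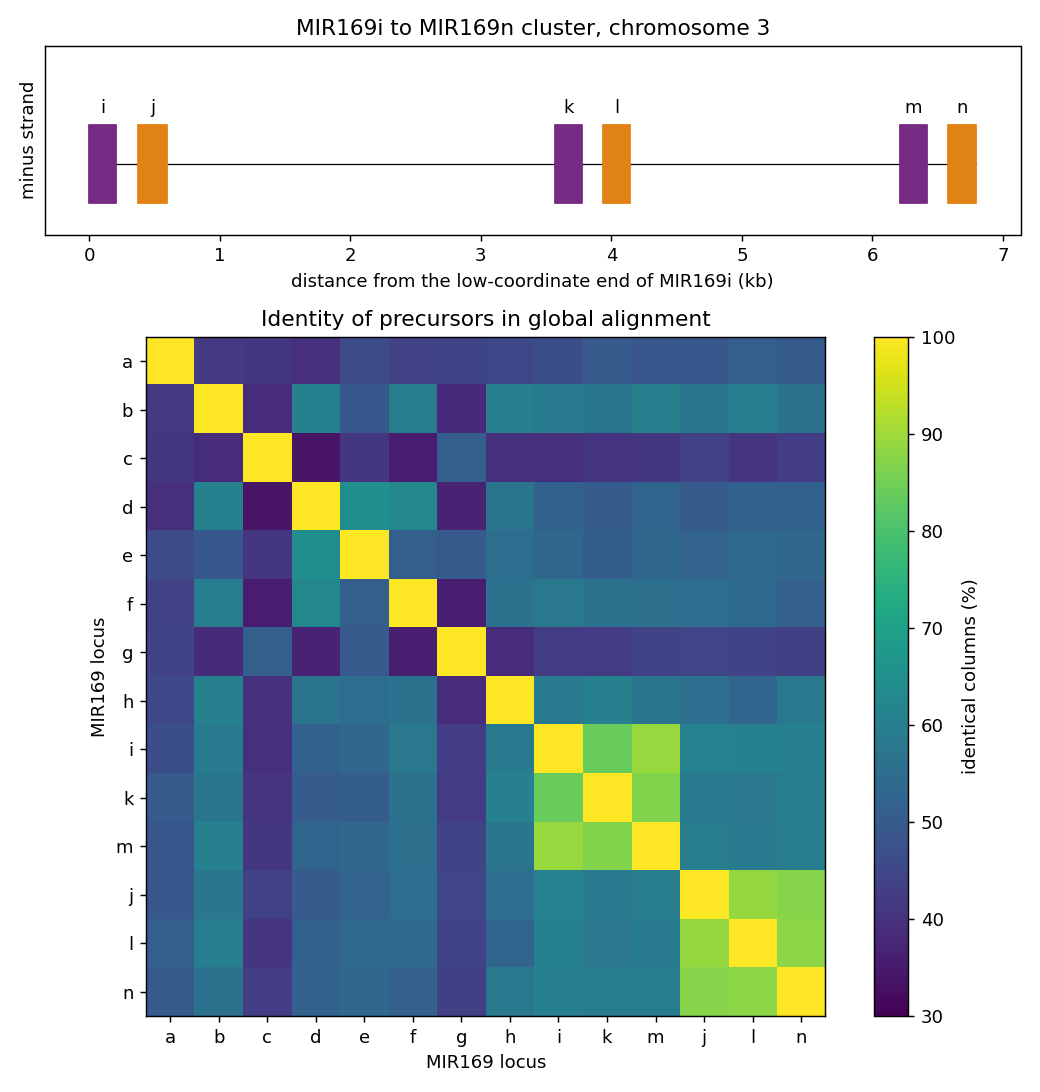
Map of the MIR169i to MIR169n cluster (boxes are precursors, x axis in kb from the low-coordinate end of MIR169i) and percent identity of all pairs of the 14 precursors (colour scale). The precursors alternate between 2 kinds, with identities of at least 83.6% within a kind and at most 61.0% between kinds.

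The match of the guides to NF-YA mRNAs was described in the annotated transcripts of 27440 genes, counting every base not in a Watson-Crick pair as a mismatch. NF-YA transcripts themselves were not measured in the files. For miR169h-n-5p, 6 genes had a site with at most 3 mismatches, and all 6 were NF-YA genes. With at most 4 mismatches there were 11 genes, 7 of them NF-YA. The sites of 8 of the 10 NF-YA genes lay in the 3′ UTR, while the best matches in NF-YA4 and NF-YA7 lay in coding sequence with 8 and 7 mismatches. These 8 UTR sites are shown 5′ to 3′ on the mRNA strand, because miR169h-n-5p would pair with them in the TAIR10.1 reference. Whether the plants studied carry the same bases was not examined. Capitals mark bases that do not form a Watson-Crick pair with miR169h-n-5p.
NF-YA6: AaggGaagtcatccttggcta
NF-YA5: ACggGaagtcatccttggcta
NF-YA8: AaggGaagtcatccttggctG
NF-YA3: AGggGaagtcatccttggcta
NF-YA2: caggcaaAtcatcTttggctC
NF-YA10: caggcaaAtcatcTttggctC
NF-YA1: cCggcaaAtcatTcttggctT
NF-YA9: GCggcaaTtcatTcttggctT

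The sites of NF-YA3, NF-YA5, NF-YA6 and NF-YA8 were unpaired at base 17 of the guide and at base 21, with base 20 in NF-YA3 and NF-YA5 and base 1 in NF-YA8. NF-YA6 (chr3:4644334-4644354, plus strand) was the closest, with 2 mismatches. Those of NF-YA1, NF-YA2, NF-YA9 and NF-YA10 were unpaired at bases 1 and 14 and at base 8 or 9, with further unpaired bases at the 3′ end in NF-YA1 and NF-YA9, and the sites of NF-YA2 (chr3:1676807-1676827, minus strand) and NF-YA10 (chr5:1986749-1986769, plus strand) were identical, with 3 mismatches. The guides did not rank these sites alike. Against miR169a-5p the sites of NF-YA2 and NF-YA10 had 5 mismatches and only NF-YA5 and NF-YA8 had as few as 3. Against miR169d-g-5p the sites of NF-YA2, NF-YA5, NF-YA6 and NF-YA10 had 3 mismatches. NF-YA1 was closest to miR169b/c-5p, with 3. A match is a description of letters and shows no cleavage.

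The libraries held 2050074 to 4482479 exact-match reads, and miR169 was a scarce family in all of them. Its 8 sequences together received 752 reads, of which 602 were from the 5p arm. Reads are given as CPM, a count relative to the library's total, with library totals adjusted by TMM factors (factors that correct for differences in composition). The 5p share of the family's reads in controls was 81.0% ± 4.44 (SD, n = 3), against 77.5% ± 11.6 (SD, n = 3) with epiBL. miR169h-n-5p alone made up 56.8% ± 4.12 of the control family reads, and 52.1% ± 8.72 of those after epiBL (SD over 3 libraries). In abundance it stood in place 103 of the 148 miRNAs that passed a filter on low counts, with a mean of 17.3 CPM, and miR169a-5p and miR169f-3p stood in places 129 and 144. The other 5 sequences failed the filter. In the library with the fewest reads, epiBL replicate 3, 3 reads correspond to 1.68 CPM, taken as the floor for a count of 0, and the upper end of the two-sided 95% exact Poisson interval of a count of 0 was 2.06 CPM.

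The family's summed level was 37.3, 40.0 and 45.3 CPM in control replicates 1, 2 and 3. With epiBL it was 19.0, 30.6 and 15.7 CPM in replicates 1, 2 and 3. Every treated library lay below every control library, and epiBL replicate 2 lay closest to the controls. Of the 148 single miRNAs tested, 17.6% likewise did not overlap with epiBL lower. The sum is a description without a test. It rests largely on miR169h-n-5p, which gave 43.3% (epiBL replicate 1) to 61.5% (control replicate 3) of the family's reads. It therefore does not show a fall of each member. In extracts of whole seedlings, fewer cells of a type and less RNA per cell cannot be told apart.

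**Figure D2:**
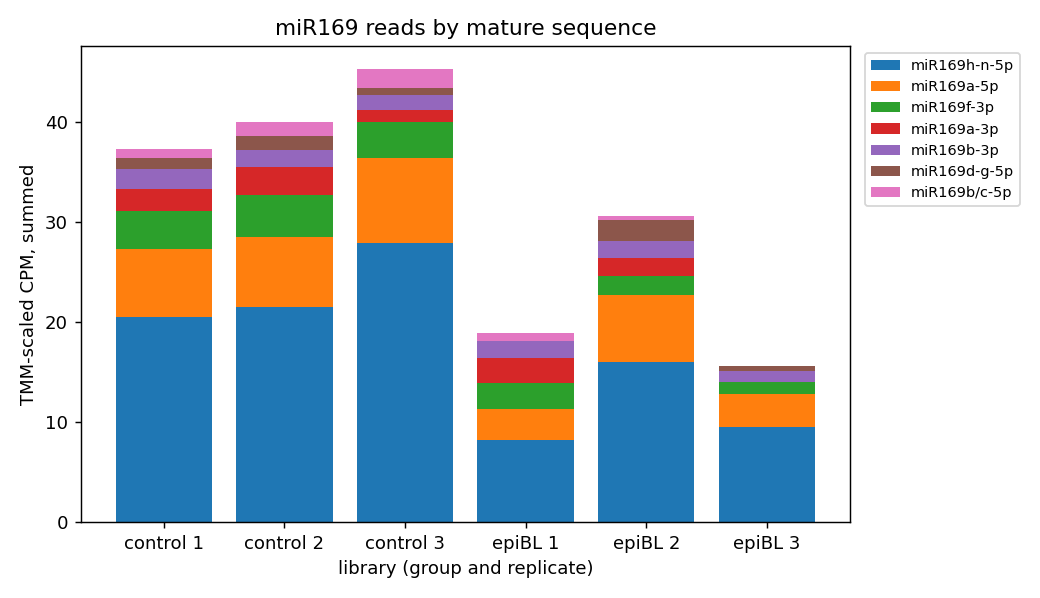
Stacked bars of TMM-scaled CPM for 7 miR169 sequences in each library (x axis: group and replicate). The bars reach 37.3 to 45.3 CPM in controls and 15.7 to 30.6 CPM with epiBL, and miR169h-n-5p is the tallest segment in every library.

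miR169h-n-5p was counted at 20.6, 21.5 and 27.9 CPM in control replicates 1, 2 and 3 (92, 92 and 115 reads). With epiBL it was counted at 8.21, 16.01 and 9.50 CPM in replicates 1, 2 and 3 (29, 69 and 17 reads). The groups did not overlap, as was so with epiBL lower for 17.6% of the 148 miRNAs, and epiBL replicates 1 and 3 lay below replicate 2. The mean went from 23.3 ± 3.98 to 11.2 ± 4.18 CPM (SD, n = 3 each). It fell to 0.503 of the control level, a log2 fold change of -0.99 (SE 0.26) with an adjusted p of 0.0276 (quasi-likelihood F test in edgeR, Benjamini-Hochberg adjusted over all 148 miRNAs). Of these 148, 5.41% were called lower with epiBL. The 95% exact Poisson interval of epiBL replicate 2, 12.5 to 20.3 CPM, overlapped that of control replicate 1, 16.6 to 25.2 CPM. Such intervals cover counting error only.

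The call of miR169h-n-5p depended on the libraries included. It passed when control replicate 1 or epiBL replicate 2 was left out, and did not when control replicate 2 (adjusted p = 0.0527), control replicate 3 (0.0854), epiBL replicate 1 (0.124) or epiBL replicate 3 (0.123) was left out, in edgeR's test. The log2 fold change stayed between -1.41, without epiBL replicate 2, and -0.75, without epiBL replicate 1. In the 8 alternative fits that kept all 6 libraries it passed each time.

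miR169a-5p, the guide of the single locus MIR169a, was counted at 6.70, 7.01 and 8.49 CPM in control replicates 1, 2 and 3. With epiBL it was counted at 3.11, 6.73 and 3.35 CPM in replicates 1, 2 and 3. epiBL replicate 2 lay within the control range, so the groups overlapped. Its log2 fold change was -0.65 (SE 0.33, edgeR adjusted p = 0.226), which did not pass. Without epiBL replicate 2 the log2 fold change was -1.19 (adjusted p = 0.0577), and without epiBL replicate 1 it was -0.38 (adjusted p = 0.578).

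miR169f-3p, from the 3p arm of MIR169f, was counted at 3.80, 4.21 and 3.64 CPM in control replicates 1, 2 and 3. With epiBL it was counted at 2.55, 1.86 and 1.12 CPM in replicates 1, 2 and 3, or 9, 8 and 2 reads. The groups did not overlap here either. Its log2 fold change was -0.97 (SE 0.41, edgeR adjusted p = 0.155), which did not pass. It had reached the test only through the control libraries, since the filter asks for about 2.56 CPM in 3 libraries.

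**Figure D3:**
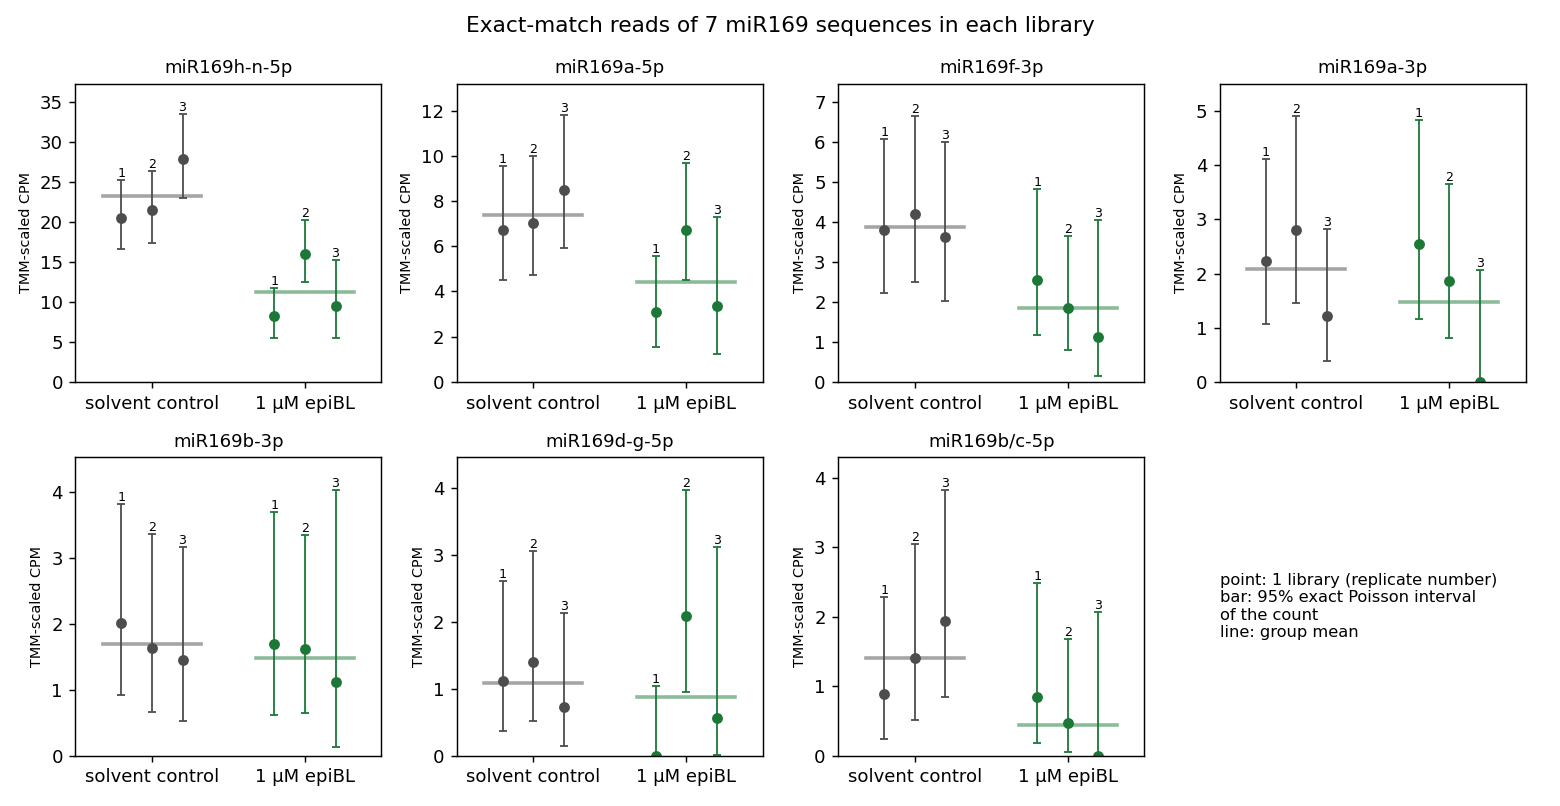
TMM-scaled CPM (y axis, each panel from 0) of the 7 miR169 sequences with reads, by group, with points for libraries labelled by replicate number, 95% exact Poisson intervals of the count as bars and group means as lines. miR169h-n-5p and miR169f-3p do not overlap between groups, while miR169a-5p overlaps through epiBL replicate 2. Of the 148 miRNAs tested, 17.6% did not overlap with epiBL lower, and miR169f-3p reached the test only through the controls.

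The 4 remaining sequences with reads had means of 0.925 to 1.78 CPM and were too scarce to be tested. miR169b/c-5p had 4, 6 and 8 reads in control replicates 1, 2 and 3 and 3, 2 and 0 in epiBL replicates 1, 2 and 3. miR169d-g-5p had 5, 6 and 3 reads in controls, and 0, 9 and 1 with epiBL, in the same order. Most of its treated reads thus came from epiBL replicate 2. miR169a-3p had 10, 12 and 5 reads in controls and 9, 8 and 0 with epiBL, and miR169b-3p had 9, 7 and 6 in controls and 6, 7 and 2 with epiBL. miR169g-3p had no read matching its mature sequence exactly in any library, although the table lists the locus in 2 of them. In an edgeR fit without the filter, all 7 sequences with reads had a log2 fold change below 0, as did 49.0% of the 257 miRNAs in that fit, and adjusted p ran from 0.428 to 0.968 for these 4.

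Arm use could not be tested with both arms past the filter at any MIR169 locus. Among 45 such pairs in the whole table, 1 passed in limma, and 0 of them were MIR169 pairs. When a pair needed only 1 arm past the filter, the log2 ratio of miR169a-5p to miR169a-3p differed between groups by 0.09 (SE 0.89, limma adjusted p = 0.960) and that of miR169d-g-5p to miR169f-3p by 0.17 (SE 1.11, limma adjusted p = 0.960). The levels of the arms themselves were unequal between loci. At MIR169a the passenger took 23.8% of the reads of both arms (44 of 185, exact binomial interval 17.8% to 30.6%, which covers counting error only). miR169f-3p had 69 reads against 24 for miR169d-g-5p, although that guide sequence is shared by 4 loci, and it exceeded the guide in 5 of 6 libraries. It took 74.2% of the 93 reads (exact binomial interval 64.1% to 82.7%). miR169b-3p had 37 reads against 23 for miR169b/c-5p, a guide shared by 2 loci, and also exceeded it in 5 of 6 libraries. Its share was 61.7%, with an interval of 48.2% to 73.9% that includes equal use. Since only exact matches are counted, a guide whose ends vary would be undercounted, and this was not tested.

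miR169a-5p was compared with miR169h-n-5p directly by their log2 ratio of counts (0.5 added to each) within each library, which does not depend on scaling. The ratio was -1.60, -1.60 and -1.70 in control replicates 1, 2 and 3. With epiBL it was -1.36, -1.24 and -1.43 in replicates 1, 2 and 3. All treated libraries lay above all controls, by 0.29 on average (two-sided exact permutation test, p = 0.1, the smallest that 3 against 3 libraries allow). Summed over libraries, miR169a-5p was 24.1% of the reads of both guides in controls (95 of 394, exact binomial interval 19.97% to 28.6%). With epiBL it was 28.6% (46 of 161, interval 21.7% to 36.2%). epiBL replicate 2 gave 29 of these 46 reads and 69 of the 115 treated reads of miR169h-n-5p. The intervals overlapped, but they cover counting error only, and their overlap is no test of a difference.

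epiBL replicate 2 stood out among the treated libraries in the 2 guides that were tested, an observation made after the values were seen. It was not the highest treated library for the scarce miR169b/c-5p. On a log2 CPM scale miR169a-5p lay 0.95 higher in it than in the mean of the other treated libraries, and none of the 148 miRNAs had a larger excess. miR169h-n-5p lay 0.82 higher, and 2.03% of the 148 had a larger excess. miR169f-3p differed by 0.08, and the median of all miRNAs by 0.0055. Over all 148 miRNAs the root-mean-square distance of epiBL replicate 2 was 0.392 to 0.425 log2 units from the other treated libraries and 0.429 to 0.470 from controls. The other treated libraries were farther from controls, at 0.480 to 0.599, and 0.457 from each other. epiBL replicate 2 was thus the treated library closest to the controls, and its distances to epiBL replicate 3 and to the nearest control were about equal.

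**Figure D4:**
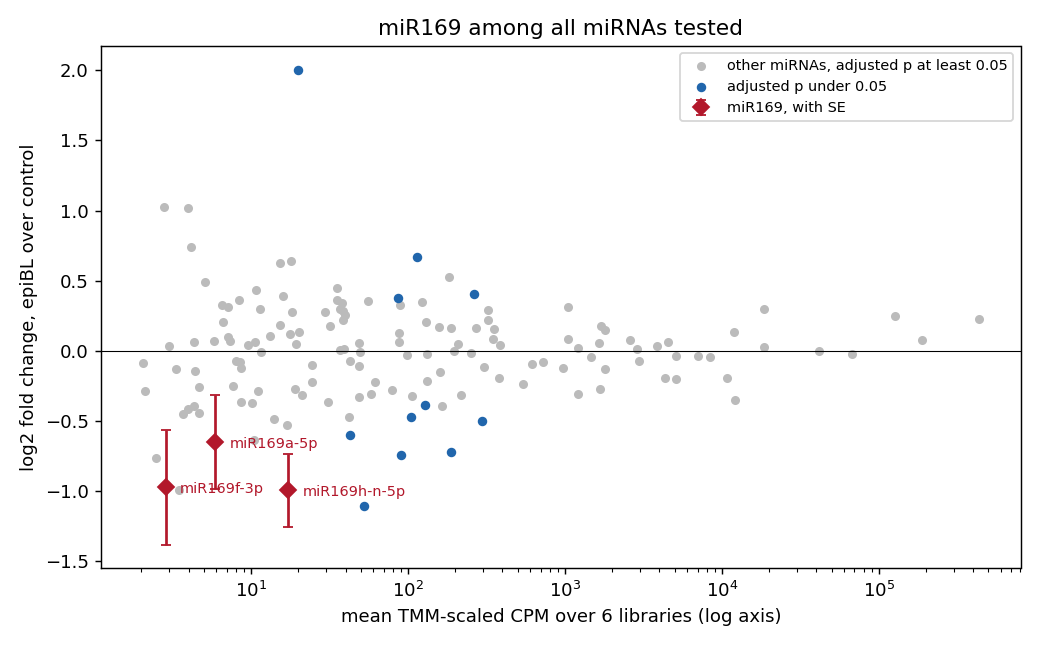
Log2 fold change (epiBL over control) against mean TMM-scaled CPM (log axis) for 148 miRNAs, with miR169 sequences as red diamonds with SE and other miRNAs with an adjusted p under 0.05 in blue. The 3 miR169 points lie between -0.65 and -0.99 in the low-abundance part of the plot, where the spread of the other miRNAs is also wide.

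The miRNAs outside the family whose level profile over the 6 libraries lay closest to that of miR169h-n-5p were miR859-5p, miR833b-5p and miR1888a-5p. Their root-mean-square distances between centred log2 CPM profiles were 0.200, 0.242 and 0.288, against a median of 0.650 over all miRNAs. miR169a-5p was closer than any of them, at 0.167, and miR169f-3p lay at 0.442. All 3 neighbours outside the family were scarce, at 2.49 to 3.66 CPM, and none passed the test. In each of them epiBL replicates 1 and 3 lay below the filter's level of about 2.56 CPM. All their control values lay above it, the lowest at 2.80 CPM (miR859-5p in control replicate 2). The 3 control libraries thus sufficed to bring them to the test.

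A short list of other families linked to nitrogen supply was examined, which does not hold every such family. Of its 9 listed sequences of miR167 (auxin response factor targets), miR393 (auxin receptor targets) and miR826 (a glucosinolate enzyme target), 8 were tested and 0 passed in edgeR's test, where 8.11% of all 148 were called, with a median log2 fold change of -0.15 against 0.0046 over all 148 miRNAs. At an unadjusted p under 0.05 there were 6 among these 8, 2 higher and 4 lower, where 23.6% of all miRNAs reached that. The smallest p was that of miR393a-3p, which went from 119 ± 5.48 to 94.4 ± 6.59 CPM (SD over 3 libraries), or -0.32 on the log2 scale (SE 0.11, adjusted p = 0.0771). The guide arm miR393a/b-5p, named after its values were seen, went the other way with the same adjusted p, from 290.5 ± 18.3 to 355 ± 21.5 CPM (SD over 3 libraries), a log2 difference of 0.29 (SE 0.10), and did not pass either. miR393a-3p passed under total-count scaling (adjusted p = 0.0418) and without epiBL replicate 2 (0.0406). Of 13 sequences linked to sulfate and phosphate supply, 10 were tested, of which 2 rose, 1 fell and 7 did not pass, with a median of 0.23. At an unadjusted p under 0.05 in edgeR's test there were 7 among these 10, 4 higher and 3 lower. The miR395 family targets sulfate assimilation. miR395a/d/e-3p rose by 0.67 on the log2 scale (SE 0.11, edgeR adjusted p = 0.000877). Its sister sequence miR395b/c/f-3p rose by 0.40 (SE 0.11, edgeR adjusted p = 0.0276), where 2.7% of all miRNAs were called higher. miR399d-3p, of the family that targets the phosphate regulator PHO2, fell by 0.39 on the log2 scale (SE 0.11, edgeR adjusted p = 0.0356). Of all miRNAs, 5.41% were called lower. miR395b/c/f-3p lost its call without control replicate 1 (adjusted p = 0.133), control replicate 2 (0.0723) or epiBL replicate 3 (0.123), and under total-count scaling (0.286). miR399d-3p lost it without control replicate 1 (0.143), 2 (0.0527) or 3 (0.166) or epiBL replicate 3 (0.123), and without the filter (0.0576).

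In the authors' deposited table the unadjusted p-values were 5.9e-05 for miR169h-n-5p, 0.0210 for miR169f-3p and 0.0451 for miR169a-5p. Their log2 values in the authors' deposited table were -0.99, -0.96 and -0.65. Among the other miR169 sequences the lowest deposited p was 0.0679, for miR169b/c-5p. These values come from the same libraries, so they are no independent support. In edgeR's test here, 23.6% of the 148 miRNAs had an unadjusted p under 0.05. After adjustment in that test, miR169f-3p (0.155) and miR169a-5p (0.226) did not pass.

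Sequence upstream of the precursors was searched for motifs bound by BZR1-type transcription factors, which carry brassinosteroid signalling to genes. CGTGTG occurred on either strand within 500 bases upstream of 1 of the 14 annotated precursor starts, that of MIR169h, and upstream of 9.05% of 33056 annotated genes. CACGTG occurred upstream of 1 of 14, MIR169g, and of 8.62% of all genes, and CGTGCG upstream of 0 of 14 and of 2.62% of all genes. Annotated starts of precursors need not be transcription starts, and within the cluster the windows of adjacent precursors overlap.

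**Figure D5:**
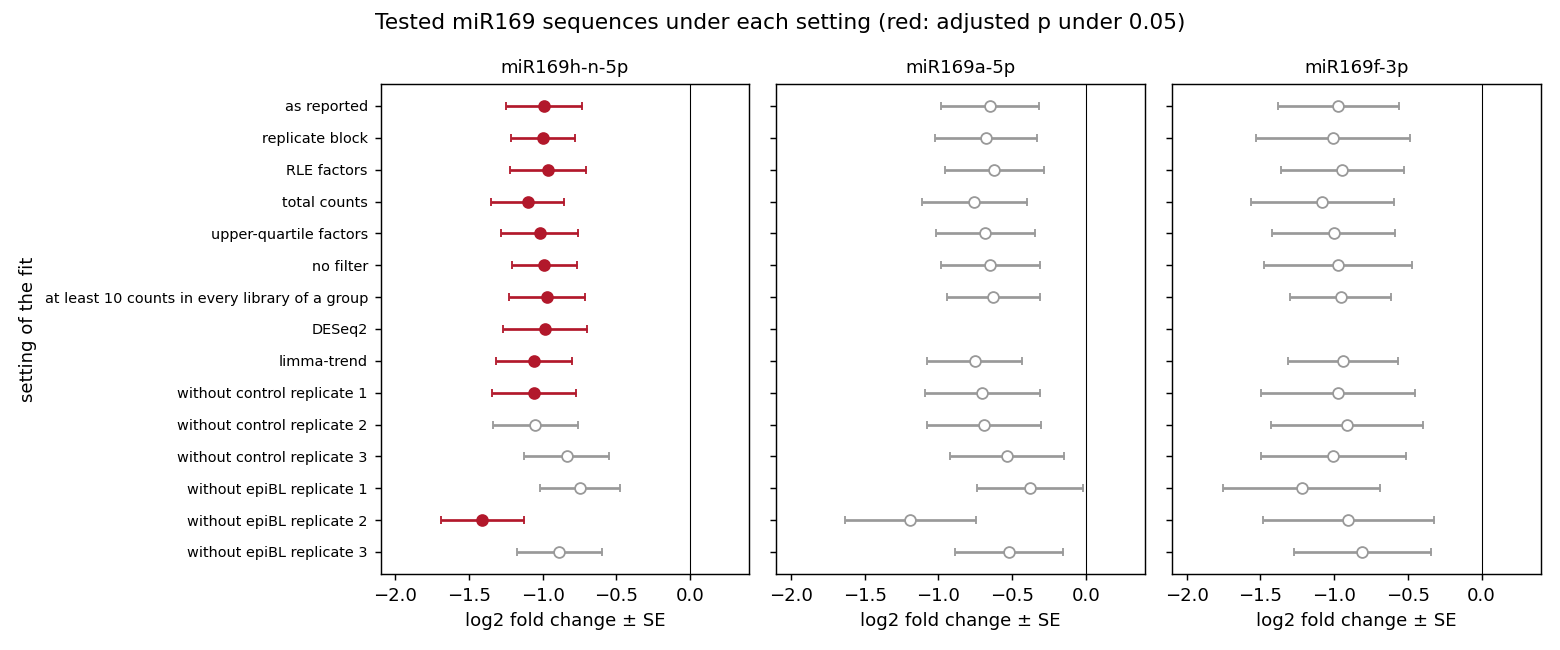
Log2 fold change with SE (x axis) of the 3 tested miR169 sequences under each setting of the fit (y axis), red where the adjusted p is under 0.05. miR169h-n-5p is below 0 throughout but is grey in 4 of the 6 fits that leave out a library; DESeq2 gave no adjusted p for the other 2 sequences.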

How the data were processed

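The authors deposited raw counts of reads identical to an annotated mature miRNA, grouped by mature sequence, per the file headers, so reads with a shifted end are not counted. The table's p-values, signed fold (a score) and log2 fold are the authors' comparison, per the file headers (an EDGE test of 0 min and 90 min); its −log10 values are also deposited but unused. The labels assign 90 min to solvent and epiBL alike and were followed. TAIR10 comes from the submitters' processing notes. Aligner, trimming and miRNA database: not given in the sources used here.

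Members and lists were chosen with earlier results of these data known. Counts entered edgeR 4.0.16 under R 4.3.3: filterByExpr (minimum count 10, minimum total 15), TMM factors, robust quasi-likelihood F test, Benjamini-Hochberg threshold 0.05. limma 3.58.1 tested arm ratios (0.5 added to counts), and DESeq2 1.42.0 was an alternative. Named were all MIR169 sequences, the 3 closest profiles to each called one, and those of 2 lists that passed or had the smallest p. Python 3.11.15 matched sequences to TAIR10.1. Labels call the replicates biological but mention no separate cultures, so a p-value here reflects spread among samples that may be technical. PCR copies count as reads. Every library pair differed beyond sampling noise. The fit was tested on simulated data. Alternatives covered scaling, filters, tools, a replicate block and leaving out each library.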

Additional observations from a re-analysis of the deposited data

How the results depend on the processing

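The 12 miRNAs called became 22 with a replicate block. Relaxing the threshold gave 26 (adjusted p under 0.1) or 35 (unadjusted p under 0.05). Leaving out 1 library gave 5, without control replicate 2 or epiBL replicate 3, to 25, without epiBL replicate 2, and 7 without control replicate 3. Other scalings, filters and tools gave 12 to 17. Total-count scaling shifted the median of all miRNAs to -0.13 and turned 4 higher and 8 lower calls into 2 and 15, while miR169h-n-5p moved to -1.10. The single arm ratio called became 2 with the replicate block, 0 where 1 passing arm sufficed, and 0 to 1 on leaving out libraries. The ratio of miR169a-5p to miR169h-n-5p differed by 0.24 to 0.34 between groups on leaving out libraries. Looser thresholds raise counts by construction. The cause of the other changes, including the rise without epiBL replicate 2, was not tested. miR169h-n-5p passed in 10 of 14 alternatives, while miR169a-5p and miR169f-3p passed in 0 of 13 each. None of the 3 changed sign, but miR169f-3p had reached the test only through the controls, so its constant sign is no support. The adjusted p of miR169h-n-5p in edgeR's test was 0.000262 with the replicate block. The data did not show pairing by number, with same-number correlations of -0.09, 0.14 and -0.11, and 2 of 6 libraries closest to their own number. With 3 replicates a group, these values cannot exclude pairing. For the 10 tested miRNAs named by the stated rule, 120 alternatives left the call as it was, 13 removed it (4 for miR169h-n-5p) and 2 added it. miR393a/b-5p, named after its values were seen, was not followed through the alternatives. Depth limits the 5 miR169 sequences that were not tested.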
